A study of Drosophila melanogaster with 2 samples.

Results

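The mRNAs described here encode the nuclear pore complex, the nuclear lamina and the soluble carriers that move cargo through the pore. Members were the genes whose symbol began with Nup followed by a digit, together with 15 genes named by symbol, and 35 of the 17720 genes in each table met this rule. They were measured in RNA immunoprecipitation (RIP) libraries, in which an antibody pulls a protein and the RNA it carries from a lysate. Ovaries came from Oregon-R females, a wild-type Drosophila melanogaster strain, collected no later than 12 hours after eclosion, with about 200 females for each RIP. A single ovarian lysate was divided between an antibody against the histone demethylase Lsd1 and a control antibody, which the title calls IgG and the antibody label describes as anti-GFP. The comparison asks which RNAs came down with Lsd1. There were 2 libraries, 1 per antibody, and without replicates the values below carry no test or p-value.

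The nuclear pore is a ring-shaped channel through the nuclear envelope. A scaffold of outer-ring (Y complex) and inner-ring proteins holds nucleoporins with phenylalanine-glycine (FG) repeats in the channel, filaments on the cytoplasmic side, and a basket on the nuclear side. Importins and exportins bind cargo and FG repeats, and the GTPase Ran sets the direction of transport, while mRNA leaves through its own export receptor. In the ovary, nurse cell nuclei export large amounts of mRNA to the oocyte, and spare pores are stored in the egg for the embryo.

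Values are FPKM, fragments scaled by transcript length and library size, with the lower and upper bounds that the authors deposited for each. A pseudocount of 1 was added to both FPKM values of a gene before the log2 of Lsd1-RIP over IgG-RIP was taken, which shrinks the ratios of weakly recovered genes. Its interval, given in parentheses, spans 2 standard errors either way and covers at most counting error and the assignment of fragments, not the variation between repeated precipitations. Eligible genes had an estimate in each table and averaged at least 1 FPKM. All 35 members were eligible, among 6025 genes in all. The median log2 ratio over eligible genes was 0.32, with the middle 50% of genes between 0.13 and 0.52, so members are read against that median rather than against 0.

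Depth and tissue were as follows. The deposited bounds imply about 2661720 fragments on listed genes for the control and about 2494960 for anti-Lsd1. Members rested on 23.7 to 913 approximate fragments in the first and 20.1 to 1245 in the second. Germline markers were present, with summed FPKM of 141 and 252 over 7 genes, of which osk alone had 91.9 and 165, while bam had 0.65 and 1.42. By FPKM all 7 lay above the all-gene median but by unlike amounts, with log2 ratios from 0.34 for vas to 1.34 for nos. Relative to the all-gene median of each measure, osk was at 0.52 by FPKM but -0.018 by approximate fragments. On the same 2 measures orb was at 0.72 and 0.050, and nos at 1.02 and 0.93. The 5 follicle cell markers summed to 9.85 and 12.5, although slbo and cas were below 1 in both libraries. The 5 muscle markers summed to 70.9 and 49.4 but did not move together: up had 38.6 and 19.3, and Mhc and wupA were also lower with anti-Lsd1, whereas Mlc2 had 12.0 and 13.3 and bt 0.62 and 1.43. The part of germline and muscle RNA in the ratios below was not tested. The 4 neuronal and 5 testis markers were at or near 0, with no gene above 0.26. In an extract of a whole organ, fewer cells of a type and less RNA per cell cannot be told apart, and since no input library was analysed here, an FPKM is RNA recovered, not RNA in the ovary.

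The members as a whole lay close to the typical gene. Single members ran from -0.48 to 1.05 and the medians of their role groups from 0.14 to 0.75, a range that by construction lies within that of the members. The median log2 ratio of the members was 0.40, or 0.079 above the all-gene median. A ratio above the all-gene median was found for 21 of 35 members, against 50% of eligible genes, and a ratio above 0 for 33, against 85.4%. The 2-fold limit was set on the log2 ratio with its pseudocount, at 1 or -1, counted from 0 and not from the median. By it only Nup358 reached 2-fold, where 2.12% of eligible genes were at least 2-fold higher in the Lsd1-RIP library. By approximate fragments Nup358 did not, with a log2 ratio of 0.83. No member was 2-fold lower, against 0.697%. Nup153 was just under the limit at 0.99, although its FPKM without the pseudocount was 2.14-fold higher. Deposited FPKM intervals lay apart, with the Lsd1-RIP value higher, for 17 of 35 members, against 36.1% of eligible genes, or 38.7% of those with at least 20 approximate fragments in each library. The members had more fragments than most genes, a median of 177 in the IgG-RIP library against 86.4, which narrows such intervals. No member had intervals apart in the other direction, against 1.64% of genes.

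**Figure D1:**
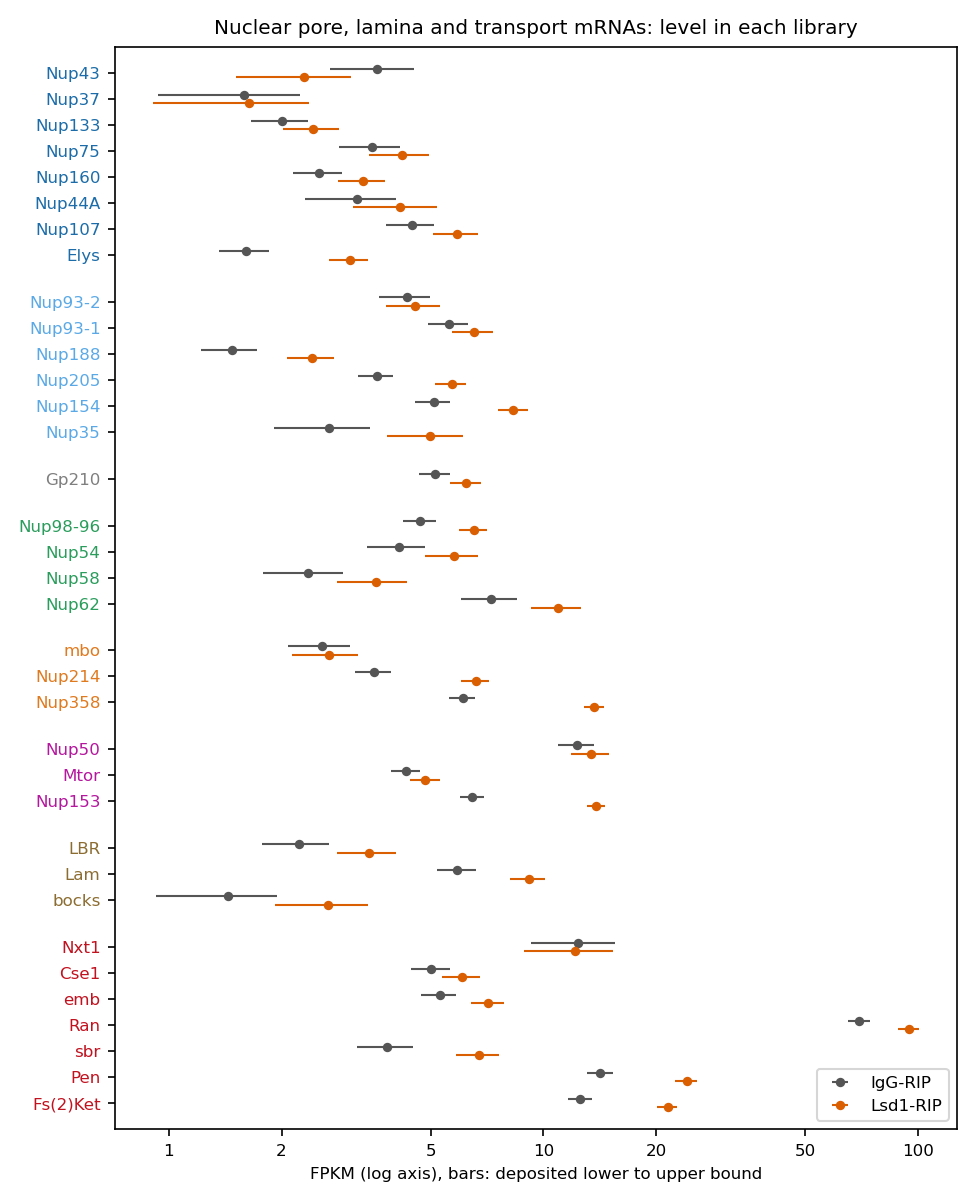
FPKM of each of the 35 mRNAs in the IgG-RIP (grey) and Lsd1-RIP (orange) library on a log axis, with bars from the deposited lower to upper bound and gene names coloured by role. Ran lies far above the rest at 69.7 and 94.6, and the gap between the libraries is widest for Nup358 and Nup153.

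**Figure D2:**
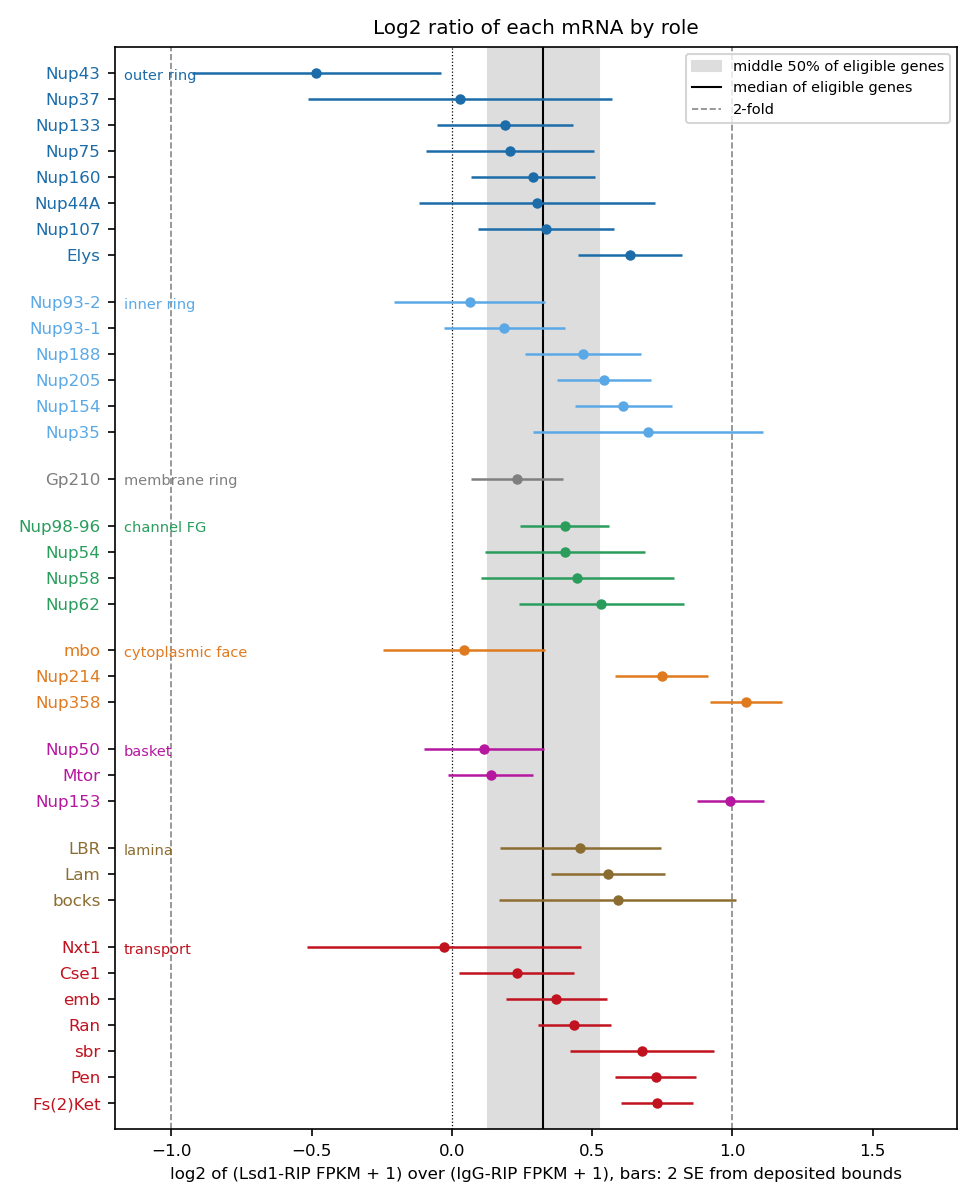
Log2 ratio of each mRNA with an interval of 2 standard errors, grouped by role, over the all-gene median (black line, 0.32) and the middle 50% of genes (grey band). Nup358 and Nup153 lie at 1.05 and 0.99, Nup43 lies at -0.48, and the channel and lamina groups are narrow.

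The basket and the cytoplasmic face each held both high ratios and ratios below the all-gene median. Nup153 (X:16599241-16610459), a basket protein with FG repeats that binds chromatin and importins, had 6.46 (bounds 5.98 to 6.93) FPKM with the control antibody and 13.8 (13.0 to 14.6) with anti-Lsd1. That is 2.14-fold without the pseudocount. With it the log2 ratio was 0.99 (0.87 to 1.11), at percentile 97.8 of eligible genes. Its basket partners did not follow it. Mtor (2R:11852617-11861202), the fly Tpr and the coiled-coil filament of the basket, had 4.31 and 4.84, a ratio of 0.14 (-0.014 to 0.29). Nup50 (2R:8123036-8125058), a mobile basket protein that helps release import cargo, had 12.3 and 13.4, a ratio of 0.11 (-0.10 to 0.33). The ratio of Nup153 exceeded that of Mtor by 0.85 (0.66 to 1.05) and that of Nup50 by 0.88 (0.63 to 1.12), so these intervals do not reach 0. The group median, -0.19 relative to all genes, is the value of Mtor alone.

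On the cytoplasmic face, Nup358 (3R:25249348-25258672), the large Ran-binding protein of the cytoplasmic filaments, had 6.09 (5.62 to 6.56) FPKM with the control antibody and 13.7 (12.8 to 14.5) with anti-Lsd1. It had the highest ratio of the members, 1.05 (0.92 to 1.18), and its FPKM without the pseudocount was 2.24-fold higher. Nup214 (2R:22918937-22924742), an FG nucleoporin of the same face, came to 3.53 and 6.60, a ratio of 0.75 (0.58 to 0.91). Its binding partner mbo (3R:12676487-12679052), the fly Nup88, had 2.56 (2.08 to 3.05) and 2.67 (2.14 to 3.21), values whose bounds overlap almost fully, and a ratio of 0.044. The ratio of Nup214 was 0.70 higher than that of mbo (0.37 to 1.03). Nup37 (3R:25247658-25249100), an outer-ring gene, ends 247 nt before the start of Nup358. It had 1.59 and 1.64, and its ratio was 1.02 lower than that of its neighbour (interval of the difference, 0.46 to 1.58).

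By FPKM ratio, the channel nucleoporins formed the narrowest group among those with more than 3 members. Nup54, Nup58 and Nup62 together form the central FG complex, and Nup98-96 encodes a precursor that is cleaved into an FG protein and an outer-ring protein. Nup62 (2R:16344377-16345828) had 7.25 FPKM with the control antibody and 10.9 with anti-Lsd1, a ratio of 0.53 (0.24 to 0.83). For Nup58 (3R:19645026-19646906) the FPKM was 2.35 and 3.57, with a ratio of 0.45. Nup54 (2R:12428449-12431099) had 4.12 and 5.77, and Nup98-96 (3R:23774225-23781621) had 4.69 and 6.52, each at a ratio of 0.40. All 4 were above the all-gene median, by 0.08 to 0.21, and none had a ratio interval clear of it. Levels differed more than ratios: per unit of length Nup62 mRNA exceeded Nup58 mRNA in both libraries, with no overlap of their bounds, while the ratios of Nup54 and Nup62 differed by -0.13 with an interval of -0.54 to 0.28.

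Most outer-ring mRNAs had ratios at or under the all-gene median. This Y-shaped complex is the main building block of the scaffold, and 6 of its 8 members were below that median, with a group median of 0.25. FPKM ranged from 1.59 to 4.45 in the IgG-RIP library. Of the core subunits, Nup107 had 4.45 and 5.88, a ratio of 0.33. Nup160 had 2.52 and 3.30, a ratio of 0.29. Nup133 had 2.01 and 2.43, at 0.19, and Nup75 had 3.49 and 4.19, at 0.21. For each of these 4 the deposited bounds overlapped between the libraries, as they did for Nup44A, the fly Seh1, which had 3.18 and 4.15, a ratio of 0.30. Nup43 (3R:18366638-18367913), a small beta-propeller subunit, stood apart: it had 3.60 FPKM (2.70 to 4.51) with the control antibody and 2.29 (1.52 to 3.07) with anti-Lsd1. Its FPKM without the pseudocount was 1.57-fold lower. Its ratio of -0.48 (-0.93 to -0.04) was the lowest of the members and at percentile 1.88 of eligible genes. However, it rests on 63.5 and 34.7 approximate fragments, and the deposited bounds overlap. At the other end Elys (X:19652305-19659407), which recruits the Y complex to chromatin as pores reform after mitosis, had 1.61 (1.36 to 1.85) and 3.04 (2.69 to 3.40), a ratio of 0.63 (0.45 to 0.82).

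Among inner-ring mRNAs, 4 of 6 exceeded the all-gene median, with a group median of 0.51. Nup35, a membrane-binding subunit, had 2.68 and 4.97, a ratio of 0.70 (0.29 to 1.11). Nup154, the fly counterpart of Nup155 and required in both germlines, had 5.09 and 8.31, a ratio of 0.61 (0.44 to 0.79). Of the large scaffold proteins, Nup205 had 3.59 and 5.69, a ratio of 0.54, and Nup188 had 1.47 and 2.41, a ratio of 0.47. For all of these 4 mRNAs the deposited bounds lay apart. The Nup93 paralogs, which link the inner ring to the channel, had lower ratios. Nup93-1 had 5.60 and 6.52 and Nup93-2 had 4.31 and 4.55, with ratios of 0.19 and 0.064 that differed by 0.12 (-0.22 to 0.47). Over the scaffold as a whole, outer and inner ring together, the median relative to all genes was -0.028 and 6 of 14 members were above it. Gp210 (2R:5760862-5774324), an integral membrane protein of the pore, had 5.15 and 6.21, a ratio of 0.23 (0.07 to 0.40).

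By FPKM ratio, lamina mRNAs lay close together, all slightly above the all-gene median, though bocks lay apart by approximate fragments, as given below. Lam (2L:5542480-5546642), the B-type lamin found in nearly all fly cells, had 5.90 (5.19 to 6.61) FPKM with the control antibody and 9.15 (8.17 to 10.1) with anti-Lsd1, a ratio of 0.56 (0.35 to 0.76). LBR (2R:21720495-21724055), the lamin B receptor of the inner nuclear membrane, had 2.23 and 3.43, a ratio of 0.46. For bocks (3R:9589468-9591002), a LEM-domain protein of the same membrane, the values were 1.43 and 2.67, a ratio of 0.59 (0.17 to 1.01) resting on 31.4 and 51.4 approximate fragments. Of the 3, Lam alone had a ratio interval above the all-gene median, a position held by 17.5% of eligible genes. LamC, the A-type lamin and not a member, was at 0.62, and the ratio of Lam differed from it by -0.068 (-0.42 to 0.28). Other envelope genes did not all follow: of 9 listed nuclear envelope genes, LamC among them, 4 were above the all-gene median and 5 below. Ote and MAN1 were among those below, at 0.070 and 0.23.

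Transport factor mRNAs held the most abundant members and a wide range of ratios. Ran (X:11144852-11148716), the GTPase of the transport cycle, had 69.7 FPKM with the control antibody and 94.6 with anti-Lsd1. It made up 29.5% and 28.3% of the summed FPKM of all members, and its ratio was 0.44 (0.31 to 0.57). Both subunits of the classical importin had ratios well above the median. Pen (2L:10056900-10060095), an importin alpha needed in oogenesis, had 14.2 (13.0 to 15.3) and 24.1 (22.5 to 25.7), a ratio of 0.73 (0.58 to 0.87). Fs(2)Ket (2L:20734609-20750941), importin beta, had 12.6 (11.6 to 13.5) and 21.5 (20.2 to 22.8), also at 0.73 (0.60 to 0.86). The difference between these partners was 0.0044 (-0.19 to 0.20).

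Cse1, the exportin that returns importin alpha to the cytoplasm, had 5.03 and 6.08, a ratio of 0.23, which was 0.49 under that of Pen (0.24 to 0.74). The other importin alpha genes, not members, were at 0.17 for Kap-alpha1 and 0.56 for Kap-alpha3. The ratio of Pen exceeded that of Kap-alpha1 by 0.55 (0.31 to 0.80) and that of Kap-alpha3 by 0.16 (-0.064 to 0.39). emb, exportin 1, which carries proteins with a nuclear export signal, had 5.28 and 7.13, a ratio of 0.37. The genes of the mRNA export receptor had unlike ratios when transcript length was not considered. sbr (X:10832752-10847092), the fly NXF1, had 3.83 (3.18 to 4.49) and 6.72 (5.83 to 7.61), a ratio of 0.68 (0.42 to 0.93). Nxt1 (2R:23811321-23811974), its partner, had 12.4 (9.28 to 15.5) and 12.1 (8.90 to 15.4), a ratio of -0.027 (-0.52 to 0.46). The ratio of sbr was 0.70 higher (0.15 to 1.26).

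These partnerships and neighbours made up 15 compared pairs, chosen for their known relation with the values already known. For 8 of them the interval of the difference did not reach 0, but no share over other gene pairs was computed to set beside this count. Transcript length was not taken into account in these differences. Nup358 with Nup37, Nup153 with Nup50, Nup214 with mbo and sbr with Nxt1 each set a longer transcript against a shorter one. Over the members, 10 of 35 ratio intervals lay above the all-gene median, against 17.5% of eligible genes. They belonged to Nup358, Nup153, Nup214, Fs(2)Ket, Pen, sbr, Elys, Nup154, Lam and Nup205. Intervals below it were found for Nup43 and Mtor, 2 of 35, against 12.7%. As above, the larger fragment numbers of the members narrow these intervals, and both counts differ when each member is read against genes of like length.

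Long transcripts were common among the members, and length moved with the ratio across all genes. Approximate fragments per FPKM rise with transcript length and were used to sort the 5472 genes with at least 20 fragments per library into 12 groups of equal size. The median log2 ratio was 0.12 in the shortest group and 0.61 in the longest. The longest group held 9 members (Mtor, Nup153, Elys, Nup358, Nup214, Nup205, Nup188, Nup98-96 and Gp210), and the longest pair of groups held 13 of 35, against 16.7% of genes. Across the 35 members the Pearson r between the ratio and the log of this length measure was 0.41 and Spearman's rho 0.36. Over all 5472 genes they were 0.35 and 0.40. Both axes share the same FPKM and libraries, and these values are descriptive.

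Read against genes of like length, the members had a median of -0.005, with 17 above and 18 below. Nup358 and Nup153 kept differences of 0.44 and 0.38, and Nup214 one of 0.14. Elys came to 0.027. Nup205, Nup188 and Nup98-96 passed below the median of their group, at -0.065, -0.14 and -0.21. Mtor was then at -0.47 and Gp210 at -0.38, although Mtor, Elys and Nup153 have nearly the same length measure (106, 102 and 102). Of the 9 longest members, 4 lay above the median of their group. Of the 10 members with a ratio interval above the all-gene median, 5 kept it above the median of their length group: Nup358, Nup153, Fs(2)Ket, Pen and sbr. Nup214, Elys, Nup154, Lam and Nup205 did not, while the shorter Nup35 and Ran did, for 7 of 35 in all, against 14.2% of genes with enough fragments. Intervals below the length group median were found for 7 of 35, against 12.5%: Nup43, Mtor, Gp210, Nup98-96, mbo, Nup93-2 and Nup133. Among shorter transcripts Nup35 was at 0.47 and Nup43 at -0.71. The partners sbr and Nxt1 were at 0.34 and -0.14, closer together than by their plain ratios. So were Nup214 and mbo, at 0.14 and -0.35. No interval was computed for either difference. The lamina group median was 0.16 and the transport group median 0.24 by this reading, and that of the scaffold -0.13. The channel group then ran from -0.21 for Nup98-96 to 0.28 for Nup62. That spread was close to that of the transport group, from -0.16 for Cse1 to 0.34 for sbr.

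**Figure D3:**
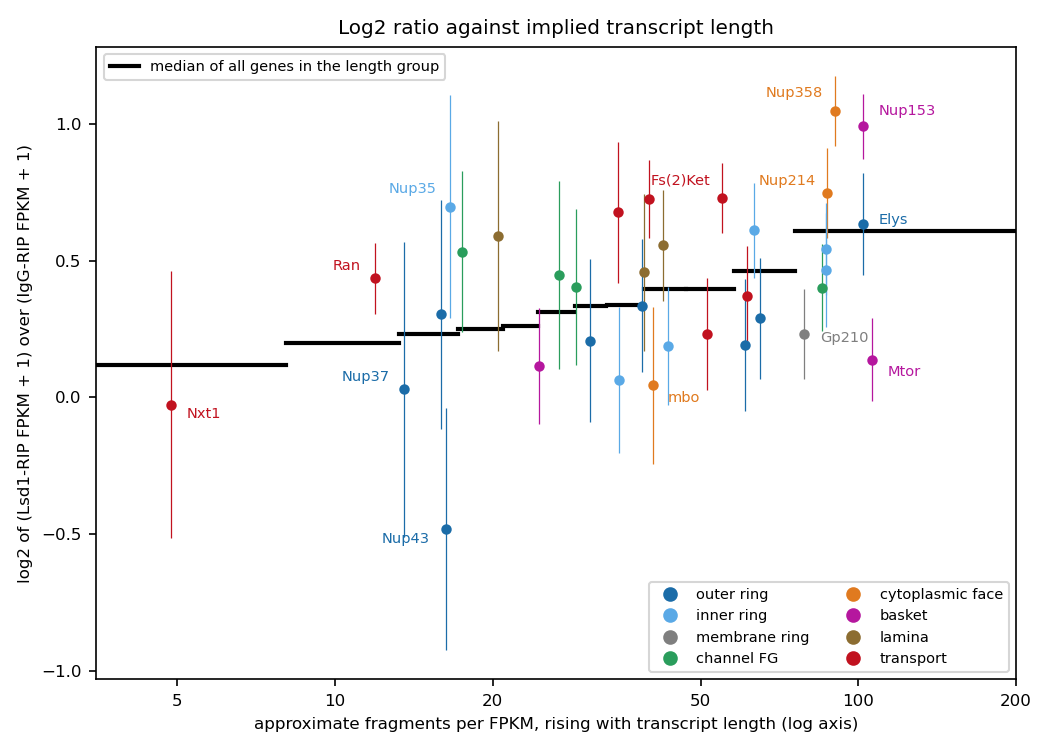
Log2 ratio of each mRNA (points, bars 2 standard errors, coloured by role) against approximate fragments per FPKM on a log axis, with the median of all genes in each of 12 length groups as black steps. The steps run from 0.12 to 0.61, Nup358 and Nup153 lie above the last step, and Mtor and Gp210 lie below it.

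The size of some ratios depended on the measure. Approximate fragments, derived from the deposited bounds and scaled by depth, gave an all-gene median log2 ratio of 0.43. Counted from 0, 0 members reached 2-fold by them. Such fragments stand for counts only if the bounds hold counting error alone. Whether they do was not tested, so for genes with several transcripts neither measure is taken as the better one. For the 14 members with a single RefSeq transcript the FPKM ratio and the fragment ratio were within 5% of each other. Among the 21 with several, 7 differed by more. Nup358, with 2 transcripts, showed the widest gap, 1.26 times: relative to the all-gene median of each measure it was at 0.72 by FPKM and 0.41 by fragments. Nup153 went from 0.67 to 0.53, and Nup98-96 went the other way, from 0.08 to 0.29. Ran, the most abundant member, went from 0.11 to -0.036 and so passed below the median. The fragment measure has no pseudocount, so genes of low FPKM also moved: Elys, whose FPKM and fragment ratios were within 5% without it, went from 0.31 to 0.50. Of the lamina genes, bocks went from 0.27 to 0.51, while Lam and LBR were at 0.15 and 0.17 by fragments. Relative to the all-gene median by fragments, Nup153 had the highest value of the members and Nup43 the lowest, -1.08. That is past 2-fold below the median, while counted from 0 the fragment ratio of Nup43 was -0.65. The excess of Nup358 over Nup214 was 0.30 by FPKM (0.09 to 0.51) but -0.055 by fragments, so their order is not settled. Nup214 over mbo and Nup153 over Mtor, at 0.83 and 0.80 by fragments, kept their direction.

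**Figure D4:**
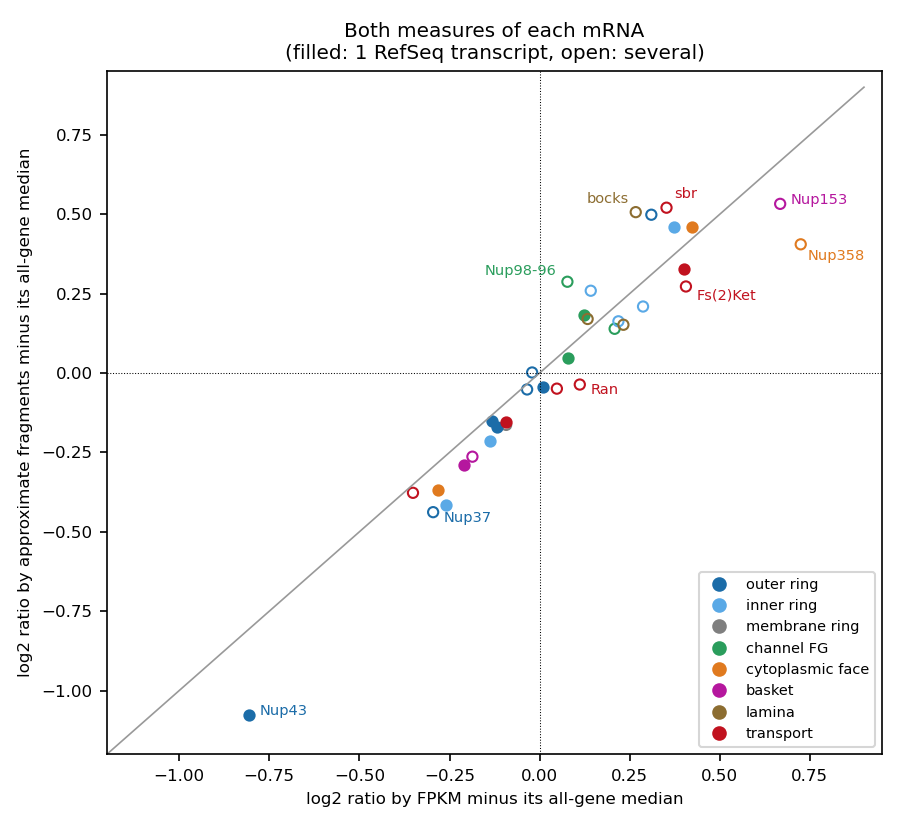
Log2 ratio of each mRNA minus the all-gene median, by FPKM (horizontal) and by approximate fragments (vertical), with filled points for 1 RefSeq transcript and open points for several. Nup358 lies below the diagonal at 0.72 and 0.41, Nup98-96 above it, and Nup43 is lowest on both axes.

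Libraries of this kind do not mark strand, so fragments of overlapping genes cannot be separated. For 10 members the locus overlapped a gene listed above 0. Nup44A lies inside the locus of ACC, which had 474 and 592 approximate fragments against 53.9 and 62.2 for Nup44A. bocks overlaps P58IPK, and with both summed the log2 fragment ratio was 0.36 in place of 0.93, below the all-gene median of 0.43 by fragments. For Nup35 the sum with CG6617 gave 0.60 in place of 0.89. Nup93-2 overlaps CG14860, listed at 0 for the control and holding 20.8 fragments for anti-Lsd1, and the summed ratio was 0.21 in place of 0.013. The sum of Nup75 with CG10915 gave 0.48 in place of 0.26. Nxt1 with CG5543 came to 0.26 in place of 0.051, still under its partner sbr, which came to 0.83 in place of 0.95 with its 3 overlapping genes. Nup44A with ACC came to 0.53 in place of 0.43, and Nup160, Nup107 and Cse1 moved by less than either. The ratios of these 10 genes are therefore less certain than their intervals state. Nup153, Nup358, Nup214, Nup43, Pen, Fs(2)Ket and Lam overlapped no such gene.

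Other genes of the pore, the envelope and nuclear transport gave a similar spread around the all-gene median. Of 47 further genes listed by function, 44 were matched and 43 were eligible, and 24 of these were above that median and 19 below. In the remaining pore genes 4 of 5 were below it. Ndc1, a pore membrane protein, was highest with 1.65 and 3.18, a ratio of 0.66, and Gle1, which acts in mRNA export on the cytoplasmic side, lowest at 0.14. Ran-cycle genes were divided 2 and 2, from RanBP3 at 0.10 to Ntf-2, the importer of Ran, at 0.76 from 18.8 and 32.5. Among importins and exportins 8 of 12 were above the median, from cdm at 0.15 to Tnpo, transportin, at 0.73. The mRNA export list had 9 of 13 above it, from Hpr1 at 0.016 to thoc5 at 0.67, both of the THO complex. Nuclear envelope genes had 4 of 9 above it. Here klar, a KASH protein that links nuclei to microtubules, had 6.07 and 13.3, a ratio of 1.02, the only one of the 43 at 2-fold, but 0.16 above the all-gene median by fragments. Torsin was lowest at -0.18.

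**Figure D5:**
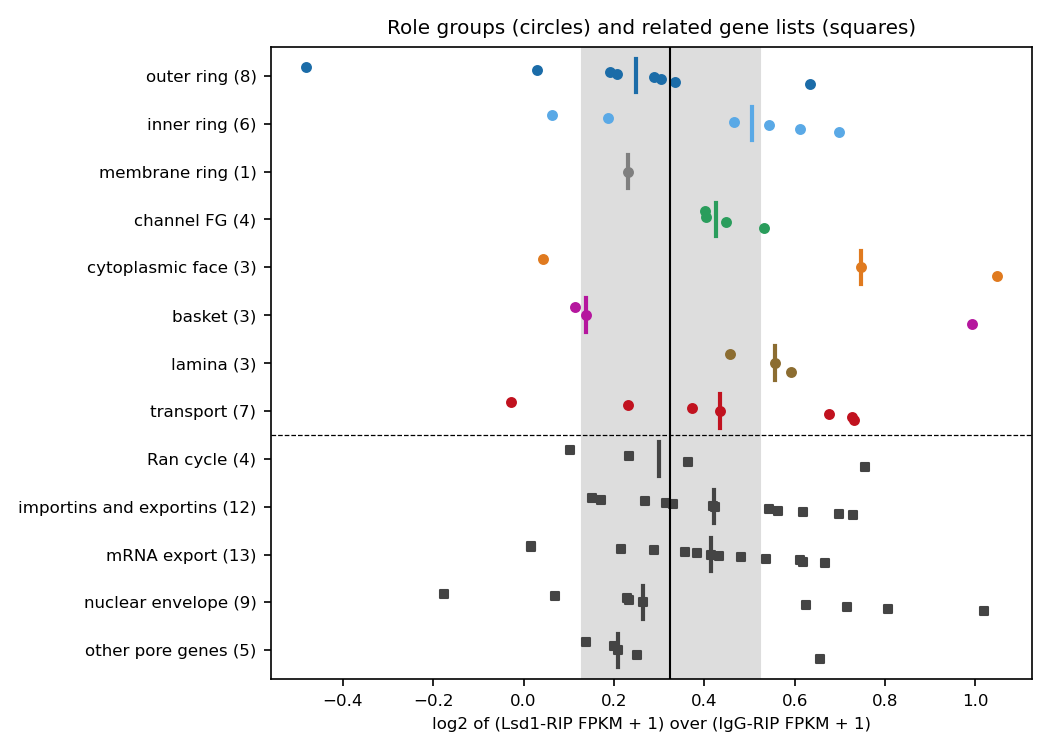
Log2 ratio of every eligible gene in the 8 role groups (circles) and 5 related lists (squares), with short vertical bars for group medians, the all-gene median as a black line and the middle 50% of genes in grey. Numbers of genes stand in parentheses, and the medians run from 0.14 for the basket to 0.75 for the cytoplasmic face.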

How the data were processed

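Gene FPKM with lower and upper bounds were deposited by the authors, 1 table per library. Per the submitters' processing notes, the dm6 build, Cufflinks, SAMtools 0.1.18.0 and Bowtie2 2.0.6.0 were used, with no roles given. Which annotation and Cufflinks version were used is not given in the sources used here. Per the labels' protocols, the kit was TruSeq RNA v2 without poly(A) selection. Loci are on dm6, counted from 1, after adding 1 to the start in the files, which then equalled that of NCBI's Release 6 table for 99.5% of 16899 symbols. Transcript numbers came from that table, which held all 35 members (Mtor under another symbol).

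Ratios used a pseudocount of 1 and a minimum mean FPKM of 1. Each deposited bound was read as 2 standard deviations of counting error, so that approximate fragments equal (2 × FPKM / (upper bound − FPKM)) squared. Where a bound also holds error in the assignment of fragments, this value is below the count. Python 3.11.15, pandas 2.3.3, NumPy 2.4.6, SciPy 1.17.1 and Matplotlib 3.10.9 were used. The computation was tested on simulated data whose bounds were built by this same reading. That test therefore cannot show whether the deposited bounds follow it. All members are named, with the highest and lowest gene of each related list. Members, role groups and lists were chosen with earlier results of these data known. The related names arts, Nxf4 and Pcid2 were not matched. With 1 library per group there was no test.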

Additional observations from a re-analysis of the deposited data

How the results depend on the processing

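Of 8 alternatives, the median of the members relative to all genes ranged from -0.005 when read against genes of like length to 0.21 with no minimum FPKM. The all-gene median itself was 0.16 with a pseudocount of 5, 0.19 with no minimum, 0.25 with equal FPKM sums, 0.42 with a pseudocount of 0.1 and 0.43 by approximate fragments. The number of members at 2-fold was 2 with a pseudocount of 0.1 and 0 with a pseudocount of 5. It was also 0 by approximate fragments, with equal FPKM sums and against genes of like length. A setting added after seeing the data, with ratios centred on the all-gene median, gave 0 as well. Only the like-length and centred counts were read from a median, and the others from 0. Relative to the all-gene median, Nup43 was past 2-fold lower with a pseudocount of 0.1, at -1.05, and by fragments, at -1.08. A minimum mean FPKM of 5 left 18 members, of which 13 were above the all-gene median, and moved the basket median to 0.25 and the cytoplasmic face median to 0.60, since fewer genes entered. Against genes of like length the cytoplasmic face median moved to 0.14, and Nup205 turned from above to below, at -0.065. By this reading, added after seeing the data for ratio intervals, 7 members in place of 10 had an interval above the reference and 7 in place of 2 below it. The scaffold median, -0.028, was 0.035 with the minimum of 5, 0.10 with none and 0.006 without overlapping loci, and the transport median was -0.036 by fragments. Of 253 values of single members under the alternatives, 231 moved by less than their own interval, 21 by more, and the remaining 1 was Nup205 against genes of like length. The sign relative to all genes changed in 16. No paired analysis was possible because each antibody had 1 library. Depth limits Nup37, bocks and Nup43 most, with 20.1 to 63.5 fragments per library.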
